A study of Mus musculus with 35 samples.

Results

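The levels of 10 growth genes were described in mouse livers: Jak1, Jak2, Stat3, Ctnnb1, Myc, Mycn, Ccnd1, Cdk4, Cdk6 and Bcl2l1. They were listed by name as growth genes proposed to lie downstream of Smyd3 in liver cancer. No rule on measured values picked them, but earlier results of these data were known when they were listed. All 10 were found among the 55413 genes of the count table, and all 10 were among the 15297 genes with enough counts to be tested. Smyd3 encodes a lysine methyltransferase. Antisense oligonucleotides (ASO) are made to bind a chosen RNA by base pairing and bring its level down.

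Liver RNA of 21 C57Bl6 mice was read at the 3′ ends of transcripts. The 6 Smyd3-ASO mice received DEN (diethylnitrosamine, which causes liver tumours) on day 14 of life at 25 mg/kg, then the Smyd3-ASO at 50 mg/kg 2 times a week from day 133, and were harvested on day 260. The 6 control-ASO mice had the same DEN, schedule and harvest day with the Control ASO. The 4 P133 mice had the same DEN, no ASO, and were harvested on day 133. The 5 untreated mice had neither DEN nor ASO and were harvested on day 260. All 3 DEN groups are labelled as DEN-induced tumours (hepatocellular carcinoma) and the untreated group as normal liver, while the RNA protocol names liver pieces, so the share of tumour in a piece is not known. DEN acts on the whole liver, the ASO was given to the whole animal, and age differs between P133 and the other groups.

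Jak kinases sit on cytokine receptors and phosphorylate Stat proteins. Stat3 then enters the nucleus, and in the liver it drives the acute-phase response after interleukin-6 and is itself among its own targets. Beta-catenin, encoded by Ctnnb1, joins cadherins at the cell membrane and carries the Wnt signal to TCF-LEF factors, which in normal liver keep up the genes of hepatocytes around the central vein. Its activity is set mainly by the breakdown of the protein and not by its RNA, and phosphorylation likewise sets the activity of Stat3. Myc and Mycn are related transcription factors that raise ribosome production and growth. Cyclin D1 (Ccnd1) binds the kinases Cdk4 and Cdk6, which let cells leave G1, and Bcl-xL (Bcl2l1) blocks cell death at mitochondria.

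Total counts ran from 4556484 to 20258619 per mouse. Levels are CPM, counts scaled to a common library size, after TMM scaling over the 21 mice, a scaling that assumes most genes do not differ, and its factors were 1.06 to 1.42 in Smyd3-ASO, 1.07 to 1.30 in control-ASO, 0.983 to 1.01 in P133 and 0.567 to 0.784 in untreated mice. Scaling by library totals moved the median log2 difference of all genes by 0.85 for control ASO over untreated, 0.90 for Smyd3-ASO over untreated, 0.59 for P133 over untreated and 0.03 for Smyd3-ASO over control ASO. Directions against untreated mice below are therefore relative to the median gene. The Smyd3-ASO and P133 mice also stood apart together from the control-ASO and untreated mice. Here 25 genes, among them Ctse and Mug2, left an empty gap of at least 2-fold between these sides. Such genes numbered 0 with Smyd3-ASO and untreated mice on one side, and 2 with Smyd3-ASO and control-ASO mice on one side. Without overlap at any gap were 177 of the 15297 tested genes, against 82 and 419 in those other 2 pairings. No member of the 10 was among them in any pairing, which says little with so few of all genes. What sets the groups apart in this way was not tested.

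Smyd3 itself, the target, had a lowest, median and highest level of 0, 0.246 and 0.758 CPM in the Smyd3-ASO mice, against 3.11, 3.95 and 4.64 CPM in the control-ASO mice. It averaged 0.325 ± 0.289 CPM in Smyd3-ASO and 3.87 ± 0.598 CPM in control-ASO mice (SD, n = 6 each; exact two-sided permutation p = 0.00216, the smallest that the 924 splits can give). The groups did not overlap, and edgeR gave a log2 fold change of -3.65 (SE 0.47, adjusted p = 1.48e-04).

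Hepatocyte markers summed to 24908 to 46220 CPM in Smyd3-ASO, 61745 to 88539 in control-ASO, 45042 to 47435 in P133 and 71952 to 117813 in untreated mice, with 5 of 8 fallen and 1 risen in Smyd3-ASO against control-ASO mice, where 12.9% of all tested genes fell and 13.3% rose. Bile duct markers summed to 43.4 to 73.5 CPM in Smyd3-ASO, 109 to 229 in control-ASO, 24.0 to 50.5 in P133 and 15.4 to 31.7 in untreated mice. Of the 5 tested bile duct markers, 2 fell and 1 rose in Smyd3-ASO against control-ASO mice. Tspan8 averaged 6.31 CPM in Smyd3-ASO and 63.8 CPM in control-ASO mice, a large part of the difference in the sums. Spp1 fell by 0.80 on the log2 scale, while Epcam rose by 1.46. Erythroid markers summed to 623 to 1612 CPM in Smyd3-ASO, 2030 to 5512 in control-ASO, 1640 to 2306 in P133 and 3566 to 8477 in untreated mice. Of the 5 tested erythroid markers, 3 globin genes fell and 1 other gene rose in Smyd3-ASO against control-ASO mice. Proliferating-cell markers summed to 14.4 to 47.2, 28.9 to 59.6, 9.98 to 15.6 and 6.86 to 30.9 CPM in Smyd3-ASO, control-ASO, P133 and untreated mice. Of these 8 markers, 0 passed the threshold in Smyd3-ASO against control-ASO mice, with a median log2 fold change of -0.76. In control-ASO mice 4 rose against untreated and 7 against P133 mice, and none fell. Of all tested genes, 23.7% and 14.4% rose there. The macrophage, lymphocyte, endothelial and stellate sums overlapped between Smyd3-ASO and control-ASO mice, and no marker of these lists was at 0 in every mouse. Their part in the results below was not tested. In bulk liver, fewer cells of a type and less RNA per cell cannot be told apart.

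In Smyd3-ASO against control-ASO mice, Jak1, Ctnnb1, Mycn and Cdk6 fell. Those were 4 of the 10 members, with 12.9% of all tested genes fallen and 13.3% risen, and no member rose in edgeR. At an unadjusted p under 0.05, 2 members had higher and 5 had lower levels, and DESeq2 called 4 falls and 2 rises, of Stat3 and Myc. The median log2 fold change of the members was -0.30, beside 0.01 over all genes tested.

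SMYD3 is described in human cells as a factor that binds the short DNA element GGAGGG, which reads as CCCTCC on the opposite strand. The sequences before the starts of the genes that fell are shown for that reason. Of the 10 members, 8 matched a RefSeq promoter window of GRCm38, 250 bases before to 50 after a start, taking the window nearest to the annotated gene start. GGAGGG was found on either strand in the windows of 7 of the 8, and in 39.2% of all 32851 windows. Shares of all windows count every window, and some genes have more than 1, so the units differ. Among windows not taken, that of Ctnnb1 held 0 matches, and that of Bcl2l1 lying 1011 bases from the gene start held 1. The 250 bases before the start are given 5′ to 3′ on the gene's strand for the genes that fell, with GGAGGG or CCCTCC in capitals.
Jak1 promoter, chr4:101265224-101265473, minus strand: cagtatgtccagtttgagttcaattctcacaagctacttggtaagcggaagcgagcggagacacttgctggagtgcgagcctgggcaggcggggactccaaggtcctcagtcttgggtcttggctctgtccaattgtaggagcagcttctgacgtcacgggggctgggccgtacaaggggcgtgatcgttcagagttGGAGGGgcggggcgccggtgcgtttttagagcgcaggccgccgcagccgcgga
Ctnnb1 promoter, chr9:120933150-120933399, plus strand: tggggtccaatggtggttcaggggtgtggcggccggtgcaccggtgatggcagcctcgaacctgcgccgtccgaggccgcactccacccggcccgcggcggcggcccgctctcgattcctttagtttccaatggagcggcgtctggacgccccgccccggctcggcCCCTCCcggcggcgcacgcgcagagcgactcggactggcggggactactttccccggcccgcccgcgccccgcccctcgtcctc
Mycn promoter, chr12:12941837-12942086, minus strand: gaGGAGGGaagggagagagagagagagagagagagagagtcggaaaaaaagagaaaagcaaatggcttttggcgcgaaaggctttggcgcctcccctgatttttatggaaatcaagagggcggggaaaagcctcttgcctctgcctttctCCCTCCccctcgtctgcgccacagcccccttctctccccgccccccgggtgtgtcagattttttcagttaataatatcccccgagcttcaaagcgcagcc
Cdk6 promoter, chr5:3343643-3343892, plus strand: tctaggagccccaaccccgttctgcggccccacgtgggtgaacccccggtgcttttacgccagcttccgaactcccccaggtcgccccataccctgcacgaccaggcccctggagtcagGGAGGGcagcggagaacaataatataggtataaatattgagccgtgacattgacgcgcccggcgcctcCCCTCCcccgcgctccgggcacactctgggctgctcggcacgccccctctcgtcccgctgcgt
The element occurred once before the Jak1 and Ctnnb1 starts, and 2 times before the Mycn and Cdk6 starts. It also occurred in the windows of Jak2, Stat3 and Cdk4, which were not called in this comparison, so a match did not separate the members that fell. The stretches printed for Cdk6 and Ctnnb1 end just before RefSeq starts that lie 2408 and 4184 bases downstream of the GENCODE vM21 gene starts. Both stretches therefore lie inside the genes as annotated there. The Stat site TTCNNNGAA was in none of the 8 windows and in 8.30% of all windows. The E-box CACGTG, the site of Myc and its partner Max, was in the windows of Cdk4 and Cdk6 and in 7.15% of all, and the TCF-LEF site ATCAAAG only in that of Cdk4 and in 3.73% of all. No match of one motif shared a base with a match of another in these 8 windows, and a match is a description of the letters, not of binding.

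**Figure D1:**
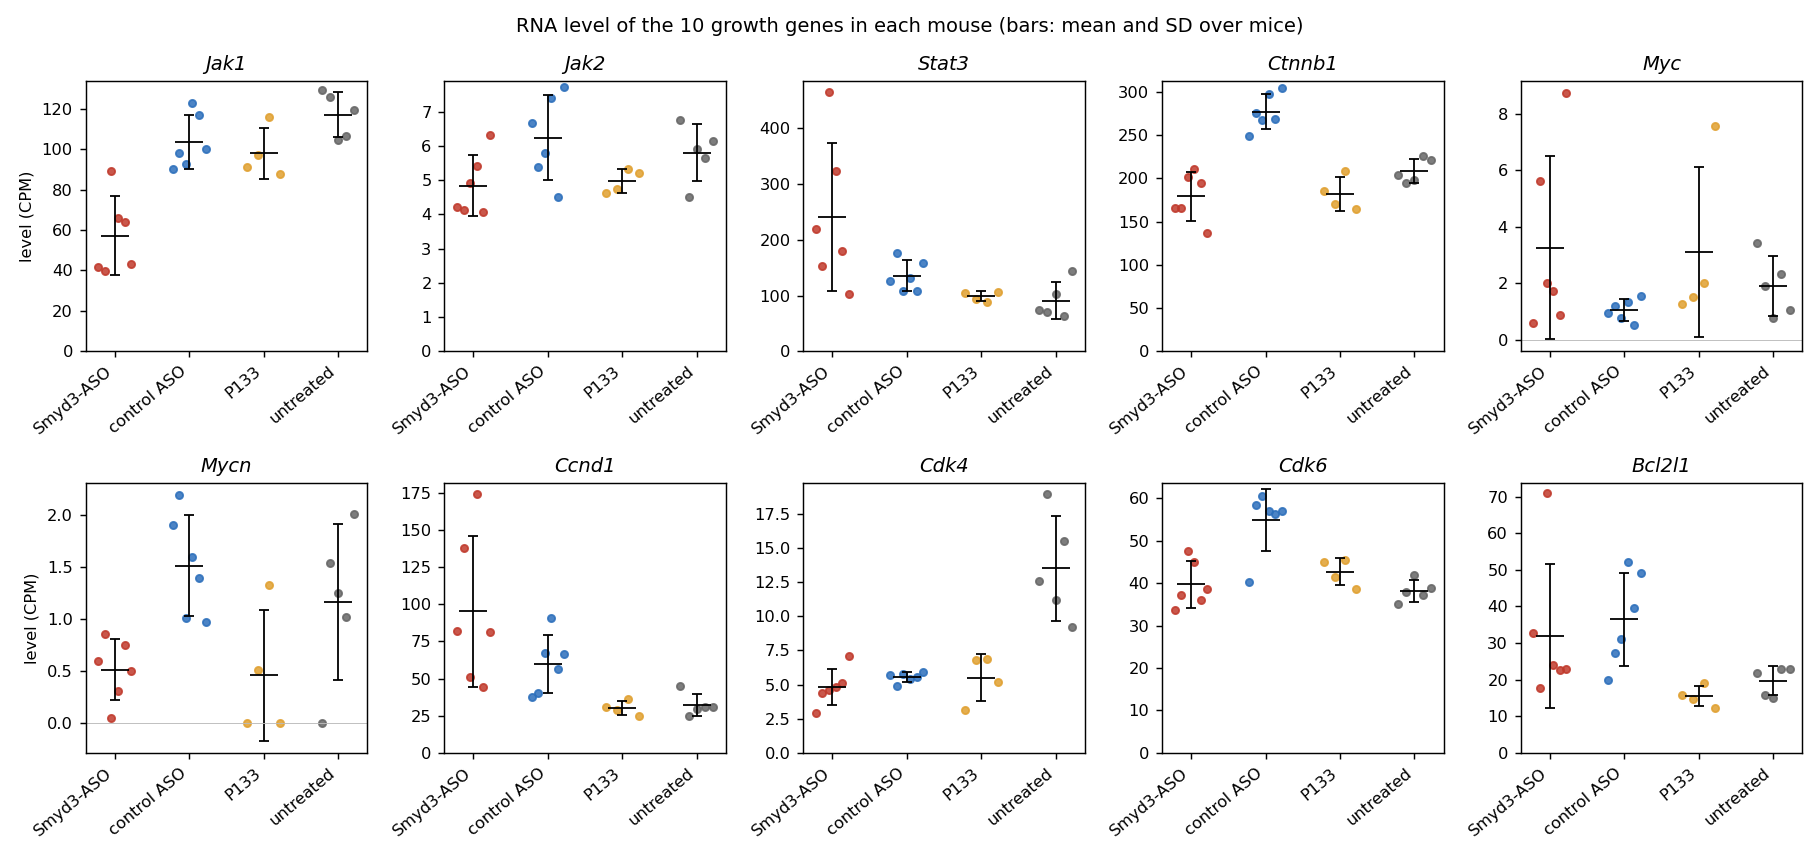
RNA level in CPM (linear axes that include 0) of each of the 10 genes in each mouse, by group, with bars for the mean and SD. Jak1, Ctnnb1 and, at few counts, Mycn sat lower in all 6 Smyd3-ASO mice than in any control-ASO mouse. The share of all tested genes without overlap between these groups was not counted. With TMM scaling, but not by total counts alone, Cdk4 was lower in all DEN mice than in any untreated mouse. Stat3, Myc, Ccnd1 and Bcl2l1 were widely spread in Smyd3-ASO mice.

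Jak1, the kinase shared by the interleukin-6, interferon and many other cytokine receptors, lies on chromosome 4 (101152367 to 101265282, minus strand, mm10). Its lowest, median and highest levels were 39.8, 53.6 and 89.1 CPM in Smyd3-ASO and 90.1, 99.3 and 123 CPM in control-ASO mice. It had 91.1, 97.2, 116 and 87.7 CPM in the P133 mice and 129, 126, 104, 107 and 119 CPM in the untreated mice. The Smyd3-ASO mice did not overlap the control-ASO or the untreated mice, and mouse 3 alone reached the range of the P133 mice.

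Jak1 fell in Smyd3-ASO against control-ASO mice by 0.86 on the log2 scale (edgeR, SE 0.19, adjusted p = 0.00575). It fell by 1.05 against untreated mice (SE 0.21, adjusted p = 0.00102), though scaling by library totals left -0.21 (adjusted p = 0.347) there. It fell by 0.78 against P133 mice (SE 0.22, adjusted p = 0.0232), with an adjusted p of 0.0548 without P133 mouse 2 and 0.0713 without P133 mouse 3. These 3 comparisons share the Smyd3-ASO mice. Control-ASO mice had a log2 difference of -0.18 from untreated mice (95% interval -0.41 to 0.06, not past the threshold), which became 0.67 (adjusted p = 0.00178) with library totals, and of 0.08 from P133 mice (-0.17 to 0.33). Its group means were 57.3 ± 19.3 CPM in Smyd3-ASO (n = 6), 104 ± 13.3 in control-ASO (n = 6), 98.0 ± 12.6 in P133 (n = 4) and 117 ± 11.2 in untreated mice (SD, n = 5).

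Jak2, the kinase of the growth hormone and leptin receptors, lies on chromosome 19 (29251828 to 29313080, plus strand). It was near the lower end of what was counted, with 22 to 122 counts per mouse, and averaged 4.84 ± 0.899 CPM in Smyd3-ASO (n = 6), 6.24 ± 1.24 in control-ASO (n = 6), 4.98 ± 0.341 in P133 (n = 4) and 5.80 ± 0.833 in untreated mice (SD, n = 5). The groups overlapped, and no comparison passed the threshold in edgeR with TMM scaling. The log2 difference of Smyd3-ASO from control-ASO mice was -0.39 (95% interval -0.73 to -0.04, edgeR adjusted p = 0.118). That from untreated mice was -0.29 and changed sign to 0.59 with library totals (adjusted p = 0.0273).

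Stat3, the transcription factor that both kinases can activate, lies on chromosome 11 (100885098 to 100939540, minus strand). The lowest, median and highest mice had levels of 103, 200 and 465 CPM in Smyd3-ASO and 108, 129 and 177 CPM in control-ASO mice. The P133 mice had 104, 94.1, 87.8 and 107 CPM and the untreated mice 74.7, 70.1, 102, 63.3 and 143 CPM. Smyd3-ASO mice spanned a 4.50-fold range, with mouse 3 highest and mouse 6 below every control-ASO mouse.

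Stat3 rose in Smyd3-ASO against untreated mice by 1.39 on the log2 scale (edgeR, SE 0.37, adjusted p = 0.00795), and by 1.28 against P133 mice (SE 0.36, adjusted p = 0.0244). The call against P133 mice rested on all 4 of them, since leaving out any one gave an adjusted p of 0.0556 to 0.0653, and it was lost without the filter on low counts (0.0654). Stat3 also rose in control-ASO against untreated mice by 0.58 (SE 0.21, adjusted p = 0.0365) and against P133 mice by 0.46 (SE 0.15, adjusted p = 0.0364). Both of these calls were lost in 1 fit over all 4 groups (adjusted p = 0.114 and 0.303). The first was also lost without untreated mouse 1, 2 or 4 or control-ASO mouse 2, 4 or 6 (0.0575 to 0.0931), and the other without any one P133 mouse or control-ASO mouse 2, 4 or 6 (0.0539 to 0.0993). Between the ASO groups the log2 difference was 0.82 (SE 0.30, adjusted p = 0.058), not past the threshold. DESeq2 called it (adjusted p = 0.0277), as did 1 fit over 4 groups (0.0265), library totals (0.0484) and the fits without Smyd3-ASO mouse 2 (0.0463) or 6 (0.0145), and without Smyd3-ASO mouse 3 it was 0.53 (adjusted p = 0.133).

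Among Smyd3-ASO mice, the mouse with the highest Stat3 was also highest in most of the listed Stat3 target genes. Of 17 measured targets on a list of Stat3 target genes, 12 were highest among Smyd3-ASO mice in mouse 3. Socs3, the feedback inhibitor of the interleukin-6 receptor, had 102 CPM there and 1.87, 9.21, 23.6, 9.18 and 5.31 CPM in Smyd3-ASO mice 1, 2, 4, 5 and 6. The acute-phase gene Lcn2 had 2269 CPM in mouse 3 and 59.5 to 383 CPM in the other 5. Untreated mouse 5, highest in Stat3 among untreated mice, was likewise highest in 11 of the 17 targets and had 3235 CPM of Lcn2, against 10.7 to 15.4 CPM in the other 4. On other lists, Smyd3-ASO mouse 3 was highest in 11 of 20 Myc targets, 3 of 18 Wnt targets and 0 of 8 proliferating-cell markers. Untreated mouse 5 was highest of its group in 13, 0 and 6 of these. The share of all tested genes that were highest in either mouse was not counted. Socs3, Lcn2 and Junb were named after their values were seen. Without both of these mice Stat3 had a log2 fold change of 1.31 over untreated (adjusted p = 0.0035), an alternative chosen after the data were seen.

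**Figure D2:**
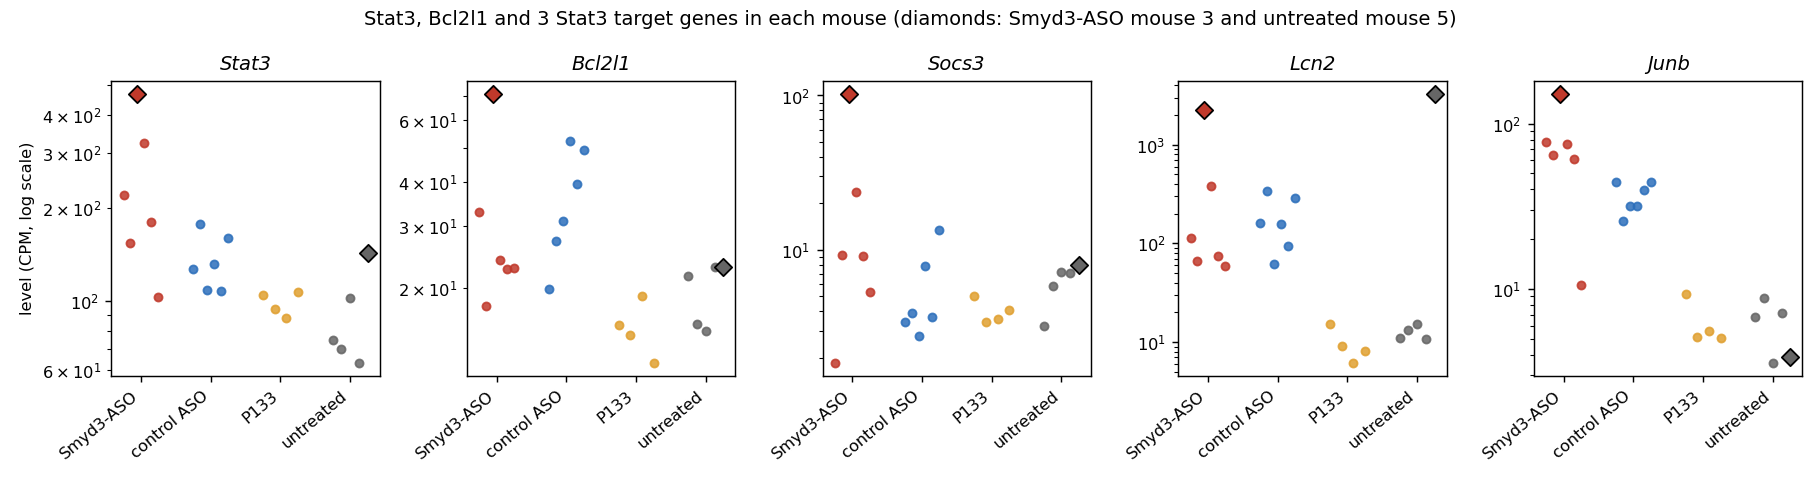
Levels in CPM (log axes) of Stat3, Bcl2l1 and 3 Stat3 target genes in each mouse by group, with Smyd3-ASO mouse 3 and untreated mouse 5 as diamonds. Smyd3-ASO mouse 3 is the top Smyd3-ASO point in all 5 panels, untreated mouse 5 stands far above its group in Lcn2 but not in Socs3 or Junb, and Junb is higher in every ASO mouse than in any P133 or untreated mouse, with Smyd3-ASO mouse 6 the nearest to them.

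As a list, the Stat3 targets had 2 of 17 risen in Smyd3-ASO against control-ASO mice by edgeR, with a median log2 fold change of 0.57 beside 0.01 over all genes. That count is no more than the 13.3% of all tested genes that rose. Il4ra, the interleukin-4 receptor chain, had 46.5 ± 10.5 CPM in Smyd3-ASO and 25.0 ± 2.80 CPM in control-ASO mice (SD, n = 6 each) and rose by 0.89 (SE 0.15, adjusted p = 0.00101). Hamp, the iron hormone hepcidin, rose by 1.84 (SE 0.57, adjusted p = 0.0339). In control-ASO against untreated mice 6 of 17 rose, led by Junb at 2.58 (SE 0.24, adjusted p = 1.91e-06) and Mcl1 at 0.79, and 3 fell, led by Cebpd at -1.20, where 23.7% of all genes rose and 22.2% fell, so the fallen share of the list was below that of all genes, and the list had a median of -0.20 beside 0.06 over all genes. Junb, an AP-1 subunit, had 36.3 ± 7.62 CPM in control-ASO (n = 6) and 6.02 ± 2.23 CPM in untreated mice (SD, n = 5).

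Around the kinases, 3 of 14 measured Jak-Stat receptors and ligands fell in Smyd3-ASO against control-ASO mice, with a median of -0.33, and 12.9% of all genes fell. They were Ifngr1, the interferon-gamma receptor chain that Jak1 binds, at -0.99 (SE 0.18, adjusted p = 0.00179), the prolactin receptor Prlr at -1.48 and the leptin receptor Lepr at -2.29. For control ASO over untreated, 5 of the 14 rose and 2 fell, with 23.7% of all genes risen and 22.2% fallen: the growth hormone receptor Ghr fell by 1.81 (SE 0.20, adjusted p = 8.7e-06), the leukaemia inhibitory factor receptor Lifr fell by 1.27, and Lepr rose by 4.22. Of the 7 other Jak and Stat genes measured, Stat5a alone passed between the ASO groups, at 0.59 (SE 0.17, adjusted p = 0.0223). Stat5a overlaps Stat3 at its 3′ end on the other strand, and the strand setting of the counting is not given in the sources used here, so reads of the pair could be shared. Stat5a was at 8.61 CPM in Smyd3-ASO and 5.70 CPM in control-ASO mice, far below Stat3.

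Among 16 inhibitors of the pathway, Ptpn2, a nuclear phosphatase of Jak and Stat proteins, rose by 1.30 (SE 0.41, adjusted p = 0.0311), Socs1, an inhibitor of Jak kinases, rose by 3.68 (SE 1.25, adjusted p = 0.0487), and Socs6 fell by 0.46 (SE 0.13, adjusted p = 0.0212). These 2 risen and 1 fallen of 16 were shares below the 13.3% and 12.9% of all genes. Smyd3-ASO mouse 3 held 37.6 CPM of Socs1 and 28.6 CPM of Ptpn2, against 0.443 to 1.90 and 5.12 to 12.2 CPM in the other 5 Smyd3-ASO mice and 0 to 0.974 and 2.79 to 6.41 CPM in control-ASO mice. In control-ASO against untreated mice 6 of the 16 rose and 4 fell (all genes 23.7% and 22.2%), led by Ptpn6 at -1.46, Socs7 at 0.95 and Socs6 at 0.74.

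Ctnnb1 lies on chromosome 9 (120929216 to 120960507, plus strand). Its lowest, median and highest levels were 136, 180 and 211 CPM in Smyd3-ASO and 250, 272 and 304 CPM in control-ASO mice. P133 mice were at 185, 170, 209 and 165 CPM and the untreated mice 204, 195, 198, 226 and 222 CPM. The control-ASO mice were above every mouse of the other 3 groups, and those 3 groups overlapped one another.

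Ctnnb1 fell in Smyd3-ASO against control-ASO mice by 0.64 (edgeR, SE 0.13, adjusted p = 0.00317), and every alternative setting and every left-out mouse kept that call. It rose in control-ASO against untreated mice by 0.41 (SE 0.11, adjusted p = 0.00809) and against P133 mice by 0.61 (SE 0.12, adjusted p = 0.00202). These 3 comparisons share the control-ASO mice. Smyd3-ASO mice differed from untreated mice by -0.24 (95% interval -0.52 to 0.03), which library totals turned to 0.64 (adjusted p = 0.00285), and from P133 mice by -0.03 (-0.33 to 0.27).

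Of 19 measured partners of beta-catenin and parts of its destruction complex, 1 rose and 2 fell in Smyd3-ASO against control-ASO mice, shares below the 13.3% and 12.9% of all genes. The TCF factor Tcf7l1 fell by 1.17 (SE 0.24, adjusted p = 0.00294) and E-cadherin, Cdh1, by 1.11 (SE 0.25, adjusted p = 0.00636), while p120-catenin, Ctnnd1, rose by 0.62. For control ASO over untreated, 5 rose and 3 fell, the first near the 23.7% and the other below the 22.2% of all genes. Cdh1 rose there by 2.33 (SE 0.24, adjusted p = 4.24e-06), Apc, the scaffold of the destruction complex, rose by 0.73, and Gsk3a, one of its kinases, fell by 0.82.

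In control-ASO against untreated mice, where Ctnnb1 RNA rose, 11 of 18 measured Wnt target genes fell, with a median of -1.27 beside 0.06 over all genes and 22.2% of all genes fallen and 23.7% risen. Prodh, a proline dehydrogenase, fell by 2.16 (SE 0.21, adjusted p = 3.42e-06), and the central-vein enzymes Cyp1a2 and Cyp2e1 fell by 3.16 and 1.87. In P133 against untreated mice 6 of the 18 fell and 1 rose, with a median of -0.54 (all genes 16.6% and 15.1%). In Smyd3-ASO against untreated mice 6 also fell and 1 rose, with a median of -0.51 (all genes 23.2% and 24.4%). Ctnnb1 did not pass the threshold in either of these. In Smyd3-ASO against control-ASO mice 4 of 18 rose and 1 fell (all genes 13.3% and 12.9%), with a median of 0.93: the ornithine aminotransferase gene Oat rose by 1.62 (SE 0.39, adjusted p = 0.00951), Cyp2e1 rose by 1.22, and Tcf7, a TCF factor, fell by 1.04. Control-ASO mouse 3 was the highest of its group in 14 of the 18, and in 2 of 20 Myc targets and 1 of 17 Stat3 targets. The share of all tested genes highest in that mouse was not counted. The comparisons with untreated mice share those mice, and the comparisons with control-ASO mice share the control-ASO mice. Cyp2e1 is also on the hepatocyte marker list, and several of the list are genes of central-vein hepatocytes.

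Myc lies on chromosome 15 (61985391 to 61990374, plus strand) and was counted 5 to 145 times per mouse. The lowest, median and highest mice had levels of 0.602, 1.87 and 8.72 CPM in Smyd3-ASO and 0.537, 1.08 and 1.54 CPM in control-ASO mice. The P133 mice had 1.26, 1.53, 2.00 and 7.58 CPM and the untreated mice 3.44, 1.90, 0.779, 2.32 and 1.07 CPM. Smyd3-ASO mice 2 and 6, at 5.63 and 8.72 CPM, and P133 mouse 4 stood above all other mice, and the groups overlapped in every comparison.

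Myc did not pass between the ASO groups, with a log2 difference of 1.54 (edgeR, SE 0.59, 95% interval 0.38 to 2.70, adjusted p = 0.0688). DESeq2 called it (adjusted p = 0.0201), and so did 1 fit over 4 groups (0.0492) and the edgeR test without Smyd3-ASO mouse 1 (0.0307) or mouse 5 (0.0374). It fell in control-ASO against P133 mice by 1.55 (SE 0.48, adjusted p = 0.0282). That call rested on P133 mouse 4, without which the log2 difference was -0.56 (adjusted p = 0.377), and it was also lost with limma voom (0.0791), library totals (0.059), the deposited score (0.0697), 1 fit over 4 groups (0.098) and without control-ASO mouse 5 (0.0528).

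Mycn, the member of the family best known from embryonic tissue and neuroblastoma, lies on chromosome 12 (12936093 to 12941914, minus strand). It was the least counted member, with 0 to 31 counts per mouse. Its lowest, median and highest levels were 0.0541, 0.554 and 0.855 CPM in Smyd3-ASO and 0.974, 1.50 and 2.19 CPM in control-ASO mice. P133 mice were at 0, 0.509, 1.33 and 0 CPM and the untreated mice 0, 1.54, 1.25, 1.02 and 2.01 CPM. A count of 0 allows up to 0.631 and 0.474 CPM in P133 mice 1 and 4 and 0.322 CPM in untreated mouse 1, at 3 counts per mouse and for counting error only. All 6 Smyd3-ASO mice were below all 6 control-ASO mice.

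Mycn fell in Smyd3-ASO against control-ASO mice by 1.56 (edgeR, SE 0.43, adjusted p = 0.0172), from 56 counts in the 6 Smyd3-ASO mice together and 111 in the 6 control-ASO mice. No other comparison passed in edgeR fitted to the 2 groups with TMM scaling, the filter on low counts and all mice. The difference for control ASO over untreated passed with library totals (log2 1.29, adjusted p = 0.0287), and Smyd3-ASO over untreated gave -1.51 (adjusted p = 0.0315) without untreated mouse 1. Control ASO over P133 gave 1.80 (SE 0.68, adjusted p = 0.0633). That difference passed with DESeq2 (adjusted p = 0.0209), limma voom (0.0338), the deposited score (0.0182), library totals (0.0331) and no filter on low counts (0.0425). It did not with median-of-ratios size factors (0.0627), 1 fit over 4 groups (0.114) or the replicate block (0.128). Leaving out P133 mouse 3, the highest P133 mouse, gave 3.04 (adjusted p = 0.0137), and leaving out any other mouse gave 1.34 to 1.90 and no call.

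Of 14 measured genes of the Myc network, Wdr5, a Myc partner, rose by 0.41 and Fbxw7, the ubiquitin ligase subunit that marks Myc for breakdown, fell by 0.53 (SE 0.15, adjusted p = 0.022) in Smyd3-ASO against control-ASO mice. That 1 gene of the 14 rose and 1 fell was below the shares of all genes, 13.3% and 12.9%. In control-ASO against untreated mice 6 of the 14 rose and 1 fell (all genes 23.7% and 22.2%), led by the Max partner Mga at 1.57, Mlx at -0.75 and Mlxipl at 1.03. Myc target genes had 5 of 20 risen in Smyd3-ASO against control-ASO mice by edgeR, with a median of 0.23 and 13.3% of all genes risen. The nucleolar proteins Nop58, Nop56 and Ncl rose by 1.57 (SE 0.31, adjusted p = 0.0029), 1.33 and 0.59. For control ASO over untreated, 7 of the 20 fell and 2 rose (all genes 22.2% and 23.7%), with a median of -0.32, led by the ribosome biogenesis genes Ddx18 at -1.65 and Pa2g4 at -0.96 and by Srm, spermidine synthase, at -1.32. Smyd3-ASO mouse 3 and untreated mouse 5 were the highest of their groups in 11 and 13 of these 20 targets, whereas the Myc levels of these mice were 2.00 and 1.07 CPM. For these counts, too, no share of all tested genes was taken.

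**Figure D3:**
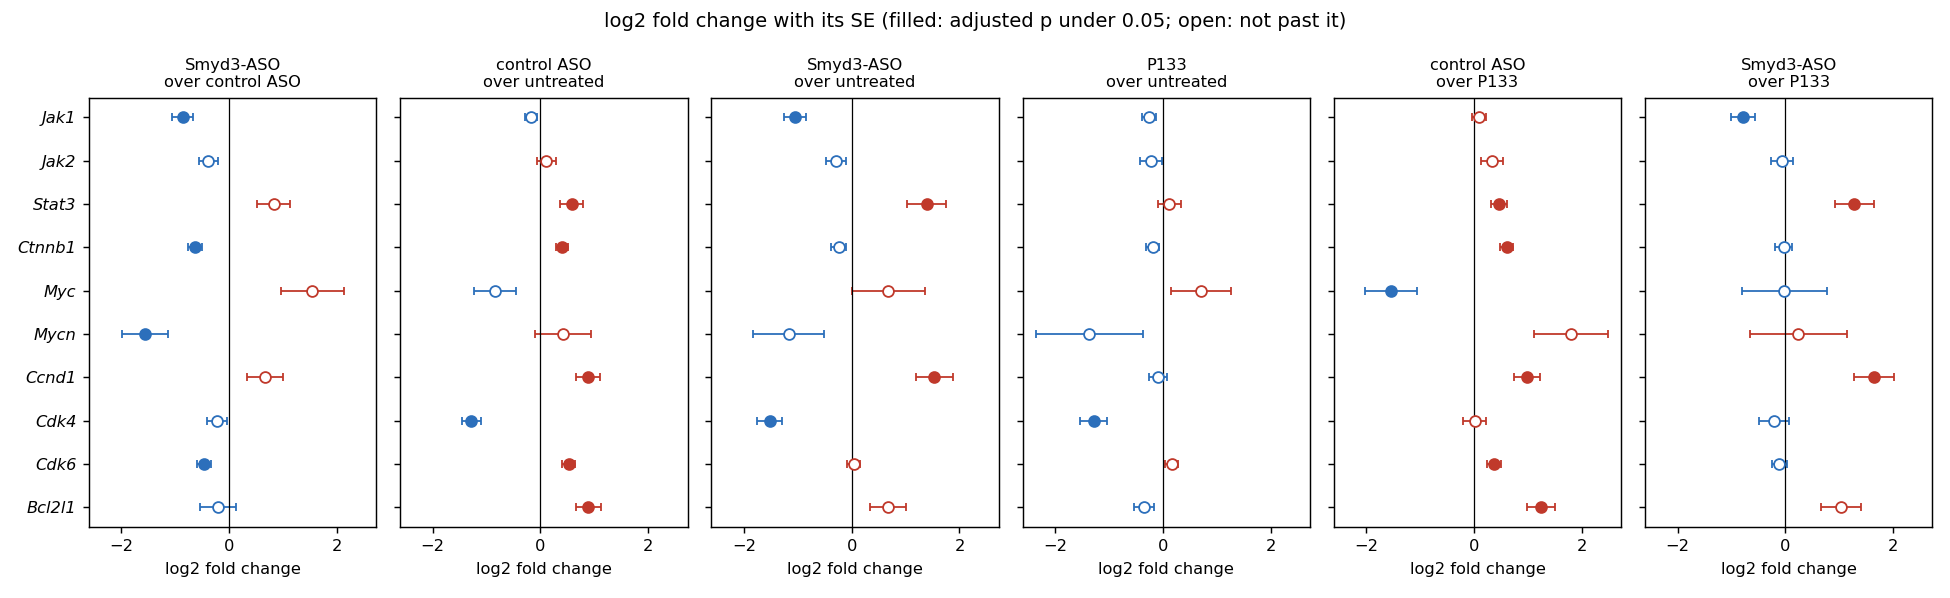
Log2 fold change with its SE of the 10 genes in 6 comparisons (x axis, log2), filled where the edgeR adjusted p is under 0.05 and open where it is not. Blue filled points for Jak1, Ctnnb1, Mycn and Cdk6 mark the falls in Smyd3-ASO against control-ASO mice, and Cdk4 lies near -1.3 to -1.5 in every comparison with untreated mice.

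Ccnd1, cyclin D1, lies on chromosome 7 (144929931 to 144939925, minus strand). The lowest, median and highest mice had levels of 44.5, 81.8 and 174 CPM in Smyd3-ASO and 37.8, 61.3 and 90.9 CPM in control-ASO mice. The P133 mice had 30.7, 29.0, 36.6 and 25.0 CPM and the untreated mice 44.9, 24.9, 29.6, 31.1 and 30.9 CPM. Both ASO groups lay above all P133 mice, and of the ASO mice only Smyd3-ASO mouse 5 and control-ASO mice 1 and 2 were within the untreated range.

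Ccnd1 rose against untreated mice by 1.53 in Smyd3-ASO mice (edgeR, SE 0.34, adjusted p = 0.00248) and by 0.89 in control-ASO mice (SE 0.22, adjusted p = 0.00559). It rose against P133 mice by 1.64 (SE 0.37, adjusted p = 0.00953) and 0.98 (SE 0.23, adjusted p = 0.0078) in these groups. All alternative settings and left-out mice kept these 4 calls. LTO1, which overlaps the 3′ end of Ccnd1 on the other strand, had 6.54 CPM in Smyd3-ASO and 8.07 CPM in control-ASO mice. Between the ASO groups the log2 difference was 0.67 (edgeR, SE 0.33, unadjusted p = 0.0649, adjusted p = 0.152). Between P133 and untreated mice it was -0.09 (95% interval -0.42 to 0.25).

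Cdk4, a partner kinase of cyclin D1, lies on chromosome 10 (127063534 to 127067920, plus strand). Its lowest, median and highest levels were 2.95, 4.71 and 7.08 CPM in Smyd3-ASO and 4.88, 5.65 and 5.92 CPM in control-ASO mice. P133 mice were at 3.16, 6.79, 6.88 and 5.21 CPM, and the untreated mice 12.6, 19.0, 11.2, 15.5 and 9.23 CPM. After TMM scaling every DEN mouse was below every untreated mouse, and the 3 DEN groups overlapped. By total counts alone DEN and untreated mice overlapped: untreated mouse 5 had 69 Cdk4 counts of 12060631, and Smyd3-ASO mouse 6 had 56 of 6358080.

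Relative to the median gene, Cdk4 fell against untreated mice by 1.52 in Smyd3-ASO (edgeR, SE 0.23, adjusted p = 1.45e-04), by 1.28 in control-ASO (SE 0.17, adjusted p = 4.03e-05) and by 1.29 in P133 mice (SE 0.26, adjusted p = 0.00155). With library totals the control-ASO difference was -0.44 (adjusted p = 0.0583). These 3 comparisons share the untreated mice. In the other 3 comparisons the log2 differences were -0.22 for Smyd3-ASO over control ASO (95% interval -0.58 to 0.14), 0.01 for control ASO over P133 (-0.41 to 0.43) and -0.21 for Smyd3-ASO over P133 (-0.75 to 0.33). The 3′ end of Cdk4 overlaps that of Tspan31 on the other strand, which had 63.0 CPM in control-ASO and 81.4 CPM in untreated mice (log2 -0.37, adjusted p = 0.0535), so the split of reads between the pair is uncertain. Its window held 4 E-boxes, the most among the 8 members with a window, and the only TCF-LEF site among those 8, and the 250 bases before the start are given with GGAGGG or CCCTCC in capitals, from RefSeq on GRCm38.
Cdk4 promoter, chr10:127063285-127063534, plus strand: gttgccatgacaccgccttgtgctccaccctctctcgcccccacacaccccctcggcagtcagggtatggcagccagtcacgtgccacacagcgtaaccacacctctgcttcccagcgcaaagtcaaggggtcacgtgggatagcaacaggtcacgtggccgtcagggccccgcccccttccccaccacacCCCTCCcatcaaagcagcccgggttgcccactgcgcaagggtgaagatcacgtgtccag

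Cdk6, the other kinase of cyclin D1, lies on chromosome 5 (3341485 to 3531008, plus strand). The lowest, median and highest mice had levels of 33.6, 37.9 and 47.7 CPM in Smyd3-ASO and 40.4, 57.0 and 60.6 CPM in control-ASO mice. The P133 mice had 45.0, 41.6, 45.5 and 38.7 CPM and the untreated mice 35.0, 37.8, 41.9, 37.2 and 38.8 CPM. Of the control-ASO mice 5 lay between 56.3 and 60.6 CPM, above every mouse of the other groups, and only mouse 1, at 40.4 CPM, overlapped them.

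Cdk6 fell in Smyd3-ASO against control-ASO mice by 0.48 (edgeR, SE 0.13, adjusted p = 0.0155), and had an adjusted p of 0.0519 without the filter on low counts. It rose in control-ASO against untreated mice by 0.53 (SE 0.12, adjusted p = 0.0023). It also rose against P133 mice by 0.37 (SE 0.13, adjusted p = 0.0458), a call that leaving out any one of 9 mice, all but control-ASO mouse 1, ended (adjusted p of 0.0593 to 0.127), as did no filter (0.0563) and limma voom (0.0605). Smyd3-ASO mice differed from untreated mice by 0.03 (95% interval -0.21 to 0.28), which was 0.93 with library totals (adjusted p = 6.12e-05), and from P133 mice by -0.11 (-0.39 to 0.16).

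Of 21 measured G1 cyclins, kinases and inhibitors, 2 rose and 5 fell in Smyd3-ASO against control-ASO mice, where 13.3% of all genes rose and 12.9% fell. The 3 with the smallest p were all inhibitors of cyclin-dependent kinases: Cdkn1c (p57) fell by 1.94 (SE 0.30, adjusted p = 5.15e-04), Cdkn2b (p15) by 3.18 and Cdkn1b (p27) by 1.29. In control-ASO against untreated mice 4 rose and 4 fell, shares below the 23.7% and 22.2% of all genes. The Rb relative Rbl2 fell by 2.39 (SE 0.21, adjusted p = 1.17e-06), and Cdkn2b and Cdkn1a (p21) rose by 4.69 and 2.47.

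Bcl2l1 lies on chromosome 2 (152780668 to 152831728, minus strand). Its lowest, median and highest levels were 17.8, 23.5 and 70.9 CPM in Smyd3-ASO and 19.9, 35.3 and 52.2 CPM in control-ASO mice. P133 mice were at 15.8, 14.8, 19.1 and 12.3 CPM and the untreated mice 21.7, 15.9, 15.1, 22.9 and 23.0 CPM. Smyd3-ASO mouse 3, the mouse with the highest Stat3, had 70.9 CPM, and the other 5 had 17.8 to 32.9 CPM.

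Bcl2l1 rose in control-ASO mice against untreated mice by 0.89 (edgeR, SE 0.24, adjusted p = 0.00779) and against P133 mice by 1.24 (SE 0.26, adjusted p = 0.00411), and did not overlap the P133 mice. The log2 difference of Smyd3-ASO from control-ASO mice was -0.20 (SE 0.34, adjusted p = 0.681), and -0.61 (adjusted p = 0.0806) without Smyd3-ASO mouse 3. That of Smyd3-ASO from P133 mice was 1.04 (adjusted p = 0.0589), and without mouse 3 it was 0.63 and passed (adjusted p = 0.0362). It also passed with library totals (0.0133), DESeq2 (0.0219), 1 fit over 4 groups (0.0246) and the replicate block (0.0220), and without Smyd3-ASO mouse 2 (0.0389). It did not with median-of-ratios size factors (0.0604), limma voom (0.112), no filter (0.113) or the deposited score (0.0581), or without any one of the other 8 mice. Over untreated mice it was 0.67 (adjusted p = 0.111), 0.26 without mouse 3, and 1.51 with library totals (adjusted p = 7.71e-04).

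In the Bcl2 family 4 of 15 rose and 3 fell in Smyd3-ASO against control-ASO mice, where 13.3% of all genes rose and 12.9% fell. Bcl2l11 (Bim), which promotes cell death, fell by 1.77 (SE 0.23, adjusted p = 1.46e-04), Bad, another such gene, fell by 0.62, and Pmaip1 (Noxa), also pro-death, rose by 2.31. For control ASO over untreated, 7 rose and 1 fell (all genes 23.7% and 22.2%), with Bcl2l11 risen by 1.73 (SE 0.19, adjusted p = 6.49e-06), the pore-former Bax by 1.92 and the survival gene Mcl1 by 0.79. The counts include 2 near-identical Bcl2a1 genes, whose reads cannot be assigned with certainty.

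**Figure D4:**
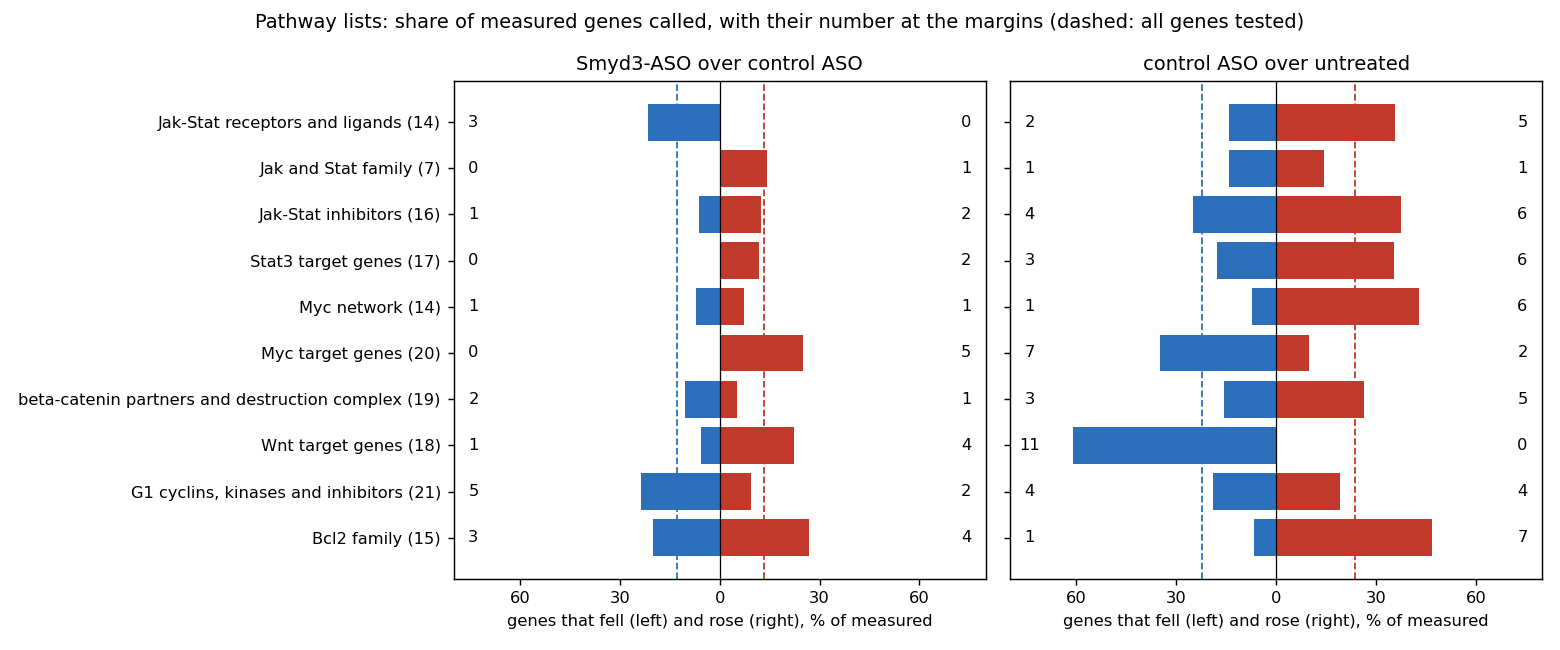
Share of the measured genes of each of 10 pathway lists that rose (right) and fell (left) in percent, for Smyd3-ASO over control ASO and for control ASO over untreated, with the numbers of genes at the margins and the share of all tested genes as dashed lines. Wnt target genes stand out with 11 of 18 fallen in control-ASO against untreated mice, and their 4 of 18 risen in Smyd3-ASO against control-ASO mice lie closer to the share of all genes.

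Counted over the 10 members, 5 rose and 1 fell in control-ASO against untreated mice (of all genes 23.7% rose and 22.2% fell), with a median log2 fold change of 0.41. In Smyd3-ASO against untreated mice 2 rose and 2 fell (all genes 24.4% and 23.2%), with a median of -0.10. In P133 against untreated mice Cdk4 alone fell and none rose by edgeR, by DESeq2 or at an unadjusted p under 0.05 (all genes 15.1% rose and 16.6% fell). In control-ASO against P133 mice 5 rose and 1 fell (all genes 14.4% and 12.6%), with a median of 0.41. In Smyd3-ASO against P133 mice 2 rose and 1 fell (all genes 13.1% and 11.7%), with a median of -0.02. With 10 genes these shares carry little weight, and only the directions of single genes are read from them.

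Over the 21 mice, the gene of most similar pattern (highest Pearson r of log2 CPM, with predicted genes and the other members left out) was Notch2 for Jak1 (r = 0.915), Ell for Stat3 (0.931), Nop53 for Cdk4 (0.937), Tceal9 for Ctnnb1 (0.900), Pja2 for Cdk6 (0.868), Coq8b for Bcl2l1 (0.854), Tuba1a for Ccnd1 (0.841), Sept7 for Mycn (0.801), Rec114 for Jak2 (0.716) and Vmp1 for Myc (0.709). Each r is the highest of all tested genes and holds the differences between groups, so it is a description. Within groups, after the group means were taken out, Jak1 went with Ctnnb1 (r = 0.686) and Bcl2l1 (0.650) and Stat3 with Ctnnb1 (0.594), over mice that share libraries and depth for both genes. Stat3 and Cdk4 had the lowest r, -0.484.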

How the data were processed

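RNA of 35 libraries from 21 mice was sequenced from 3′ ends (QuantSeq FWD kit), per the labels' protocols. HISAT2 2.1.0, the mm10 genome and DESeq are named in the submitters' processing notes. The counting program, its annotation and its use of strand are not given in the sources used here. The deposited raw table holds counts, and the authors had merged the libraries of each ASO mouse (1 to 3) into 1 column. A further deposited table gives a score, normalized by the authors, which equalled the raw count over a median-of-ratios size factor within 0.51 for 100% of values. It served only as an alternative.

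Symbols and positions came from GENCODE vM21. For each comparison edgeR 4.0.16 (R 4.3.3) was fitted to the counts of the 2 groups it names (genes kept by filterByExpr over 4 groups, TMM, robust quasi-likelihood, two-sided, Benjamini-Hochberg over 15297 genes, threshold 0.05). An SE is the log2 fold change over the root of F, and a 95% interval is 1.96 SE either side. With so few mice these intervals are narrower than the F test implies. Alternatives were median-of-ratios factors, library totals, no filter, DESeq2 1.42.0, limma voom (limma 3.58.1), 1 fit over 4 groups, a replicate block, the deposited score as log2(value + 1), and each mouse left out, and 1 more was added after the data were seen. The fit was tested on simulated data.

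The named genes were the 10 members, Smyd3, up to 3 genes of smallest adjusted p per list and comparison, and the most similar gene of each member. Overlapping neighbours, Socs3, Lcn2, Junb, the Bcl2a1 genes, Ctse and Mug2 were named after their values were seen. The members and the lists were chosen with earlier results of these data known. The labels call mice biological replicates, so p-values measure the spread between mice.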

Additional observations from a re-analysis of the deposited data

Results flagged for a closer look

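In 3 of 40 groups of mice, 4 groups for each of the 10 genes, a mouse stood farther from the rest than Dixon's 95% critical value, 7.5% of the groups, where chance flags about 1 in 20. Myc had 7.58 CPM in P133 mouse 4, with the next P133 mouse at 2.00 CPM. Cdk6 had 40.4 CPM in control-ASO mouse 1, the lowest of its group, with the next at 56.3 CPM. Bcl2l1 had 70.9 CPM in Smyd3-ASO mouse 3, with the next at 32.9 CPM.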

How the results depend on the processing

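For the 10 genes in 6 comparisons, leaving out 1 mouse at a time gave 591 values on the same side of the threshold, 9 that newly passed and 30 that no longer passed. The other settings gave 449, 21 and 17 such values and 3 reversals. All 3 reversals came with library totals: Jak1 in control ASO over untreated at 0.67, and Jak2 and Ctnnb1 in Smyd3-ASO over untreated at 0.59 and 0.64. With library totals 10723 genes were called in control ASO over untreated instead of 7018, and 7292 in P133 over untreated instead of 4839, while 7 members instead of 4 were called in Smyd3-ASO over untreated and 3 instead of 1 in P133 over untreated. Apart from that shift of all genes, the cause was not tested.

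With 1 mouse left out, genes called in Smyd3-ASO over P133 ran from 2519 to 4282 (3794 with all mice, the lowest without P133 mouse 2), and members called from 1 to 4 (3 with all). The 1 was reached without P133 mouse 2 or 3. Members called in control ASO over P133 ran from 3 to 6 (6 with all), the 3 without P133 mouse 4. In Smyd3-ASO over control ASO, members called ran from 4 to 5 in these fits, and were 3 with no filter and 6 with DESeq2. Without Smyd3-ASO mouse 3 and untreated mouse 5, 6743 genes and 4 members were called in Smyd3-ASO over untreated.

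A replicate block by mouse number reduced genes called in control ASO over P133 to 2543 from 4131 and members called to 3 from 6, and those in Smyd3-ASO over control ASO to 3092 genes from 4000, with 4 members in both. Same-numbered mice had residual correlations of -0.12 to 0.11, and of the 6 Smyd3-ASO mice 0 correlated best with their own number among control-ASO mice. The sample titles give only a replicate number, and with so few mice this check cannot exclude a pairing. The block also left Ctnnb1 in control ASO over untreated at 0.37 (adjusted p = 0.0507). Counts limit Mycn (0 to 31 per mouse), Myc (5 to 145) and Jak2 (22 to 122).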
